A study of Mus musculus with 8 samples.

Results

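The 36 genes described here mark the endothelium of mouse pancreatic islets, the layer of cells that lines the islet capillaries. They were taken as a list of endothelial genes outside the VEGF, Notch and adhesion families, chosen with earlier results of these data known. They were found in the count tables by their Ensembl identifiers. All 36 were found among the 54532 genes in each table, and all 36 were among the 17055 genes that passed the filter on low counts. Poly(A) RNA came from whole islets, hand-picked after collagenase digestion, kept overnight in medium and then exposed for 3 h to DMSO or to DMXAA, a small molecule that activates mouse STING. Wild-type islets and islets labelled Sting-/- were each given DMSO or DMXAA at 50 µg/mL, which made 4 groups of 2 libraries. All mice were 25 to 30 weeks old. The labels give no strain, sex or allele for the mice and do not say whether islets of several mice were pooled, so p-values measure the spread between libraries, which may be technical. In whole islets, fewer endothelial cells and less of a transcript per endothelial cell cannot be told apart.

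Islet capillaries are dense and fenestrated, with thin diaphragms across the pores of the cells, and they pass glucose and hormones between blood and endocrine cells. Endothelial identity is held by transcription factors of the ETS family (Erg, Fli1, Ets1), the SOXF family (Sox7, Sox17, Sox18) and the basic helix-loop-helix genes Tal1 and Lyl1. These factors act on genes of junctions, of receptors for blood-borne and matrix ligands, and of secreted proteins. STING is the adaptor between sensing of DNA in the cytosol and interferon genes, and endothelial cells are among the cell types that express it.

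Short stretches of DNA before gene starts were searched for letters that ETS factors are known to prefer. They are shown for Eng and Egfl7, which hold AGGAAG, and for Esm1, in which none of the exact ETS letters searched was found. Shorter or variant ETS letters were not searched, so Esm1 is not shown to lack them. These 3 genes were lower in wild-type islets with DMXAA, and their stretches lay almost wholly outside annotated exons. The sequences are from RefSeq on GRCm38.p6, each 150 bases, plus strand, 5′ to 3′, ending at the base before the start. Capitals mark the ETS letters AGGAAG on either strand.
Eng, chr2:32646445-32646594: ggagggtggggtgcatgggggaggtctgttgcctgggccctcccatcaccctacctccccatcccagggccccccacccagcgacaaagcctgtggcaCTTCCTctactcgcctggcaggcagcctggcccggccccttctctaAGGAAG
Egfl7, chr2:26583715-26583864: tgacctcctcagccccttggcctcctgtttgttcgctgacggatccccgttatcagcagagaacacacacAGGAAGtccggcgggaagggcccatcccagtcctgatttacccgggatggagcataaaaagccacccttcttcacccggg
Esm1, chr13:113209509-113209658: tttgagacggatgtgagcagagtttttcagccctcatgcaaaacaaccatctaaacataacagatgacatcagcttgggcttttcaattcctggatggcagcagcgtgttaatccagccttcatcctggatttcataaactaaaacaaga
The Egfl7 stretch belongs to 1 of its 3 annotated starts. The table of promoters held 20 starts of 15 of the 36 genes among 32536 starts in all, and 250 bases before each start were searched on both strands. AGGAAG was in 45% of the 20 stretches, against 29.6% of all stretches. The other ETS letters CCGGAA were in 5%, against 12.1%. The longer AACAGGAA, which can share bases with AGGAAG, was in 10%, against 2.26%. The SOX letters ACAATNG were in 20%, those before Cd36, Clec14a, Robo4 and Tek, against 6.87%. The interferon-stimulated response element, in a simplified form, was in 0%, against 2.98%, and the GATA letters AGATAA in 10%, against 9.97%. These matches describe the letters only, and none is shown here to be a bound site.

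Egfl7 also hosts a microRNA that is known for its part in vessel integrity, and it is shown because its hairpin lies within the counted gene. The capitals mark its seed, bases 2 to 8 (RefSeq, chr2:26591402-26591423, plus strand).
mmu-miR-126a-3p: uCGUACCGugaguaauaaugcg
Mature microRNAs carry no poly(A) tail and were not measured by these libraries. Of the exon bases of Egfl7, 11.2% were shared with Gm20532, Mir126a, Mir126b or Agpat2. For Rasip1 the share was 42.9%, for Nos3 32.3% and for Sox17 16.8%, and the sources used here do not say how reads in such overlaps were assigned. These 4 genes are uncertain to that extent.

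Total counts per library were between 15624020 and 19601850, and the 36 genes together held between 16620 and 34632 of them. Of the labelled tissue, the 8 beta cell markers were detected and summed to between 161006 and 321307 CPM, which are counts set on 1 common library size. The targeted gene Sting1 had 39 and 41 counts in wild-type libraries with DMSO, 23 and 39 in those with DMXAA, 48 and 19 in the DMSO libraries labelled Sting-/-, and 35 and 27 in the DMXAA libraries with that label. The count of the gene was thus not lower under the knockout label (log2 difference 0.03 with DMSO, SE 0.47, edgeR adjusted p = 0.984), although a gene-level count is blind to which exons the reads fell in. These libraries are called knockout-labelled, and every direction by genotype rests on the label. Values below are CPM after TMM scaling, replicate 1 before replicate 2, with log2 fold changes, SE and Benjamini-Hochberg adjusted p from edgeR's quasi-likelihood test over all 17055 genes. A gene counts as changed where that p was under 0.05.

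Levels of the 36 genes were compared per kilobase (kb) of exon. The highest mean over the 8 libraries was that of Plvap, the protein of the fenestral diaphragms, at 72.9 CPM per kb. Esm1, a secreted proteoglycan, followed at 60.8, the TGF-beta co-receptor Eng at 38.4 and Cdh5, the cadherin of endothelial junctions, at 20.8 CPM per kb. The lowest were Lyl1 at 0.330, Tal1 at 0.386, Cldn5 at 0.393 and Clec14a at 0.595 CPM per kb. Cldn5, a tight junction gene prominent in brain vessels, had between 6 and 16 counts in any library, and Lyl1 between 2 and 22. Counting error alone is large for Cldn5 and Lyl1, and no change is read from them.

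**Figure D1:**
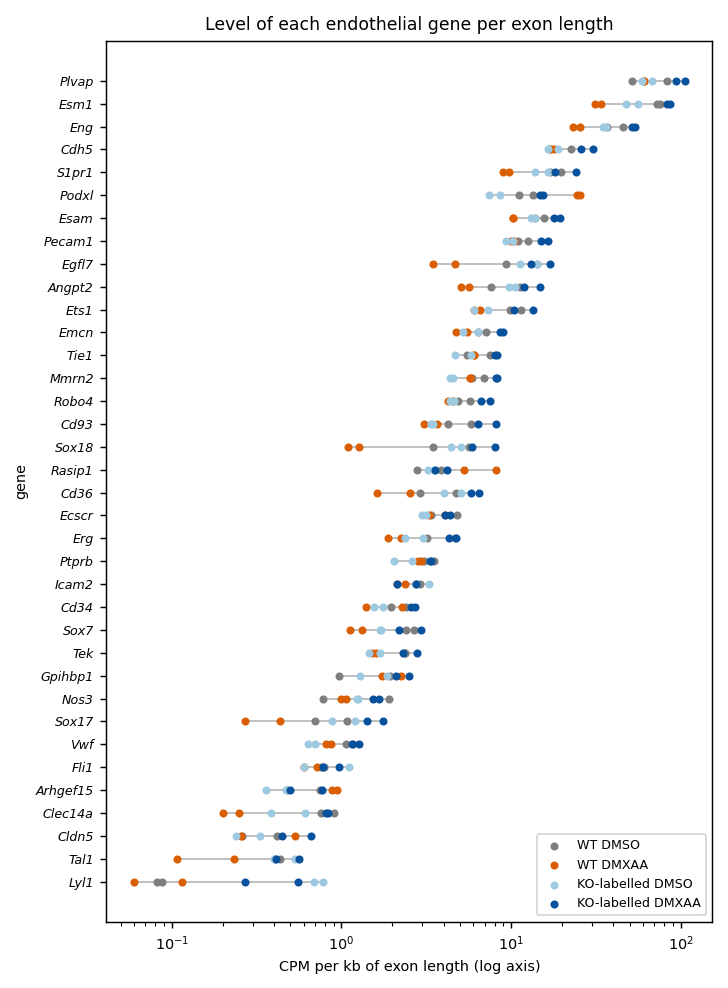
Level of each of the 36 endothelial genes in CPM per kb of exon length (x axis, log scale), with 1 point per library coloured by group and a grey line from the lowest to the highest library. Plvap and Esm1 are at the top with means of 72.9 and 60.8, and the wild-type DMXAA points of Sox18, Sox17, Egfl7 and Clec14a lie apart on the left of their lines.

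The first comparison asked what DMXAA did to the endothelial genes of wild-type islets. A set of regulators, receptors and secreted proteins fell within 3 h. The junction genes by which endothelium is most often recognised did not pass the test. Whether these groups of genes differed from each other was not tested. Of the 36 genes 7 fell and 1 rose, that is 8 called, where 1.48% of all tested genes were called (0.375% lower and 1.11% higher). The median log2 fold change of the 36 was -0.40, with 30 below 0, against a median of 0.00 over all genes tested. The libraries of the groups did not overlap in 24 genes that were lower and 3 that were higher, where 23.9% and 22.5% of all genes were so separated. The count of 8 became 3 without wild-type DMXAA replicate 1 and 4 without replicate 2.

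Among secreted and matrix proteins 2 of 5 fell. Esm1, endocan, which is made by sprouting endothelium, was at 159 and 151 CPM with DMSO and at 65.7 and 71.4 CPM with DMXAA. The groups were far apart, and both treated libraries stood below every other library of the series. Its log2 fold change was -1.18 (SE 0.15, adjusted p = 0.000421), and the call held in every alternative tried. Egfl7, a secreted matrix protein of growing vessels, was at 33.5 and 50.7 CPM with DMSO and at 12.4 and 16.7 CPM with DMXAA. It fell by 1.53 on the log2 scale (SE 0.23, adjusted p = 0.00235), a call that missed the threshold without wild-type DMXAA replicate 1 (adjusted p = 0.0503). Angpt2, the angiopoietin that antagonises Tie2 and is stored in endothelial granules, had a log2 fold change of -0.82 (SE 0.20, adjusted p = 0.0629). The clotting and adhesion protein Vwf, at 17.2 and 18.7 CPM in the controls against 13.1 and 13.9 CPM in treated libraries, and the matrix protein Mmrn2 did not pass the test.

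Among receptors and their partners 3 of 9 fell, and all 9 had fold changes below 0. Eng was at 149 and 185 CPM with DMSO and at 93.6 and 104 CPM with DMXAA, without overlap. It fell by 0.76 on the log2 scale (SE 0.15, adjusted p = 0.0190). S1pr1, the receptor by which sphingosine 1-phosphate tightens the endothelial barrier, was at 59.8 and 51.8 CPM with DMSO and at 27.5 and 29.7 CPM with DMXAA. Its treated libraries were lower than any other in the series, with a fall of 0.96 (SE 0.17, adjusted p = 0.00966). Clec14a, a lectin-like receptor of angiogenic endothelium, was at 4.16 and 3.44 CPM with DMSO, from 79 and 70 counts, and at 0.915 and 1.14 CPM with DMXAA, from 17 and 22 counts. It fell by 1.87 (SE 0.38, adjusted p = 0.0200). The calls of these 3 genes were lost without either wild-type DMXAA library (adjusted p = 0.338 and 0.145 for Eng, 0.156 and 0.0881 for S1pr1, 0.228 and 0.133 for Clec14a). That of Eng was also lost without knockout-labelled DMSO replicate 1 or 2 (0.0661 and 0.0678), which share the fit but not the contrast, and those of S1pr1 and Clec14a without wild-type DMSO replicate 1 (0.106 and 0.161). The angiopoietin receptor Tek (Tie2) had a log2 fold change of -0.61 (adjusted p = 0.305), its partner Tie1 of -0.10 (adjusted p = 0.849) and Cd93, a lectin-like adhesion receptor, of -0.57 (adjusted p = 0.275).

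Among transcription factors 2 of 8 fell, and the median of the 8 was -0.99. Sox18, a SOXF factor of vessels and lymphatics, was at 5.63 and 9.20 CPM with DMSO and at 2.05 and 1.77 CPM with DMXAA. The treated libraries were lower than any other, and the fall of 1.96 (SE 0.33, adjusted p = 0.00510) was the largest of the 36 genes in this fit. Leaving out wild-type DMXAA replicate 2 ended the call (adjusted p = 0.0776). The other SOXF genes did not pass the test, with -1.33 for Sox17 (SE 0.37, adjusted p = 0.141) and -1.05 for Sox7 (SE 0.25, adjusted p = 0.0668). Ets1, an ETS factor also present in lymphocytes, was at 83.5 and 97.6 CPM with DMSO and at 51.5 and 55.6 CPM with DMXAA. It fell by 0.76 (SE 0.17, adjusted p = 0.0441), a call that was lost in 11 of 17 alternatives, among them each fit without a library other than the knockout-labelled DMXAA ones, with adjusted p between 0.0706 and 0.439. Its relative Erg, which represses inflammatory genes in endothelium, was at -0.93 (SE 0.24, adjusted p = 0.0992).

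Among genes of junctions and of the cell surface 1 of 8 rose and 0 fell, with 6 of 8 fold changes below 0 and a median of -0.23. Esam, a junction adhesion molecule, was at 39.4 and 44.6 CPM with DMSO and at 29.6 and 29.4 CPM with DMXAA, without overlap, and did not pass the test (adjusted p = 0.172). Emcn, a sialomucin of capillaries and veins, was at 34.7 and 38.6 CPM and at 25.5 and 29.6 CPM, also without overlap and without a call (adjusted p = 0.369). Pecam1, the platelet-endothelial adhesion molecule, was at 68.8 and 77.9 CPM with DMSO and at 61.8 and 64.9 CPM with DMXAA, and its log2 fold change was -0.21 (SE 0.14, adjusted p = 0.564). Cdh5 was at 70.6 and 95.4 CPM and at 71.8 and 75.3 CPM, so that its groups overlapped (-0.17, SE 0.17, adjusted p = 0.695). Plvap, of the capillary transport genes, was at 102 and 165 CPM and at 121 and 121 CPM, again with overlap (-0.14, SE 0.19, adjusted p = 0.793). Without wild-type DMSO replicate 2 the fold changes of Cdh5, Plvap and Tie1 turned positive, to 0.06, 0.24 and 0.14, so no direction is read from them. Podxl, podocalyxin, a sialomucin that keeps the luminal membrane open and is also made by other cell types, was the 1 member that rose. It was at 61.3 and 73.4 CPM with DMSO and at 135 and 139.9 CPM with DMXAA, clear of all other libraries of the series. Its log2 fold change was 1.03 (SE 0.15, adjusted p = 0.00170), and the call held in every alternative tried. Rasip1, a Rap1 effector needed for vessel lumens, was at 8.89 and 12.4 CPM and at 26.3 and 16.9 CPM. Its log2 fold change of 1.02 (SE 0.24) did not pass the test (adjusted p = 0.0612).

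**Figure D2:**
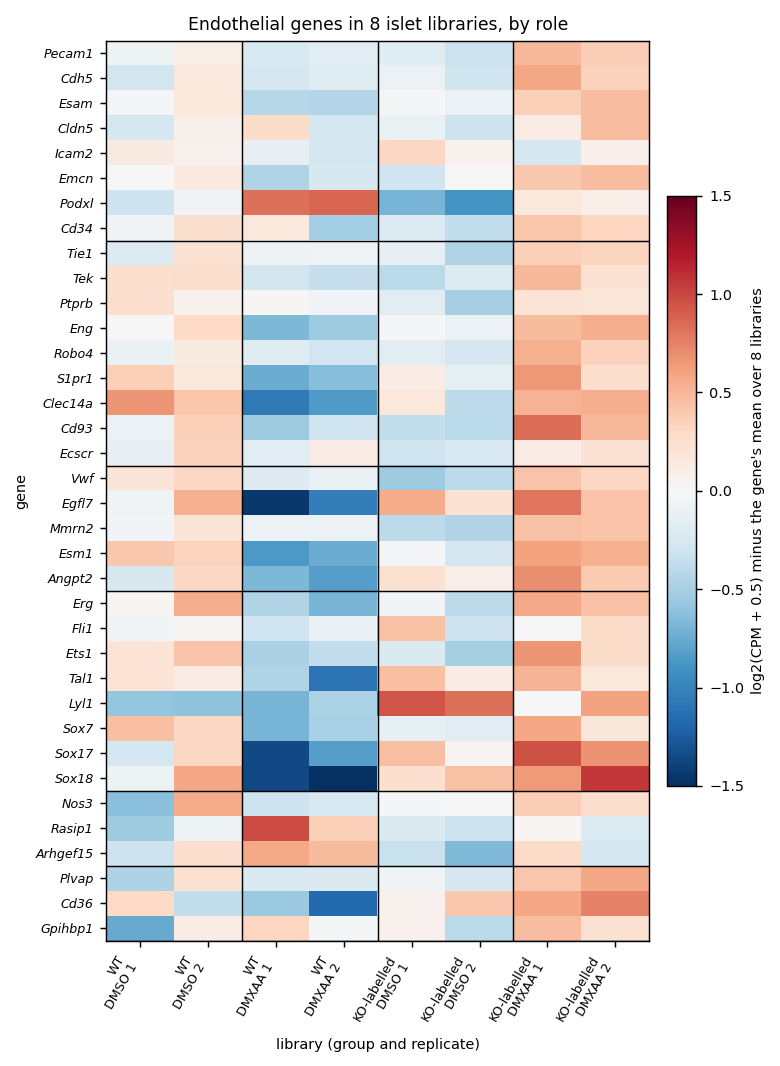
Colour map of log2(CPM + 0.5) minus the mean over the 8 libraries for each of the 36 genes (rows, by role) in each library (columns, by group and replicate; KO is knockout-labelled). Sox17, Sox18, Egfl7 and Clec14a are among the darkest blue in the wild-type DMXAA columns, Podxl and Rasip1 are red there, and the knockout-labelled DMXAA columns are red for most rows, being the highest library for 19 and 7 of the 36 genes.

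Each gene was also set against the sum of the other 35, a ratio that takes out a shift common to all of them. Podxl was at 5.54% and 5.55% of the other genes' sum with DMSO and at 16.2% and 16.4% with DMXAA. Esm1 went the other way, from 15.7% and 12.2% to 7.25% and 7.76%. Pecam1 was at 6.26% and 5.91% with DMSO and at 6.79% and 7.01% with DMXAA. In this ratio 14 of the 36 genes were lower without overlap and 10 were higher. Of all genes 3.28% were lower and 55.6% higher, with genes outside the list set against the sum of the 36. That sum itself fell with DMXAA, which raises the ratio of genes outside the list, so these shares are no baseline for the 36. The ratios were not tested, and a fall in a gene with a large share raises the ratios of the others. They therefore do not show which of the 36 genes were unchanged.

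DMXAA was then compared with DMSO in knockout-labelled islets, where the 4 libraries are all different from those of the first comparison. Here most endothelial genes had higher values with DMXAA, but few passed the test. Of the 36 genes 3 rose and 0 fell, where 0.375% of all tested genes were called (0.164% higher and 0.211% lower). The median log2 fold change was 0.61, with 34 of 36 above 0, against 0.00 over all genes. The groups did not overlap in 31 genes that were higher and 1 that was lower, where 18.1% and 17.7% of all genes were so separated.

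Cd93 was at 23.1 and 22.6 CPM with DMSO and at 54.2 and 42.7 CPM with DMXAA. Both treated libraries were above all other libraries of the series, and the rise was 1.08 on the log2 scale (SE 0.19, adjusted p = 0.0314). Mmrn2, multimerin 2, the matrix ligand of Cd93 and Clec14a, was at 18.1 and 17.4 CPM with DMSO and at 32.8 and 32.4 CPM with DMXAA. It also lay above every other library and rose by 0.88 (SE 0.16, adjusted p = 0.0399). Podxl was at 46.9 and 40.7 CPM with DMSO and at 85.0 and 81.4 CPM with DMXAA, with a rise of 0.93 (SE 0.15, adjusted p = 0.0240). Leaving out any 1 of the 4 knockout-labelled libraries ended all 3 calls, with a count of 0 each time and adjusted p between 0.0513 and 0.588. The call of Mmrn2 was also lost without wild-type DMXAA replicate 1 or 2 (adjusted p = 0.0815 and 0.0807). The count was 0 with limma-voom, with total-count scaling and with a stricter filter, and 9 with DESeq2. The count was 7 when either wild-type DMSO library was left out of the shared fit.

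The genes that had fallen in wild-type islets did not pass the test in either direction here. Esm1 was at 118 and 99.99 CPM with DMSO and at 182 and 174 CPM with DMXAA, for a log2 fold change of 0.71 (SE 0.14, adjusted p = 0.0597). Egfl7 was at 51.1 and 40.6 CPM and at 60.9 and 46.8 CPM, with overlap (0.23, SE 0.22, adjusted p = 0.926). Sox18 was at 7.14 and 8.27 CPM and at 9.59 and 13.0 CPM (0.54, SE 0.27, adjusted p = 0.731). Eng was at 146 and 141 CPM and at 208 and 219 CPM (0.57, SE 0.15, adjusted p = 0.175). Among junction genes Pecam1 went from 64.0 and 58.1 CPM to 102 and 94.0 CPM (0.68, SE 0.14, adjusted p = 0.0663), and Cdh5 from 80.0 and 69.1 CPM to 128 and 109 CPM (0.67, SE 0.17, adjusted p = 0.146). All of these treated libraries except those of Egfl7 lay above both of their controls. Set against the sum of the other 35 genes, Podxl was at 4.42% and 4.25% with DMSO and at 5.34% and 5.42% with DMXAA. In this ratio 7 of the 36 genes were higher without overlap and 8 were lower. Of all genes 1.85% were higher and 77.7% lower. The sum of the 36 itself rose with DMXAA, which lowers the ratio of genes outside the list, so these shares are no baseline for the 36.

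**Figure D3:**
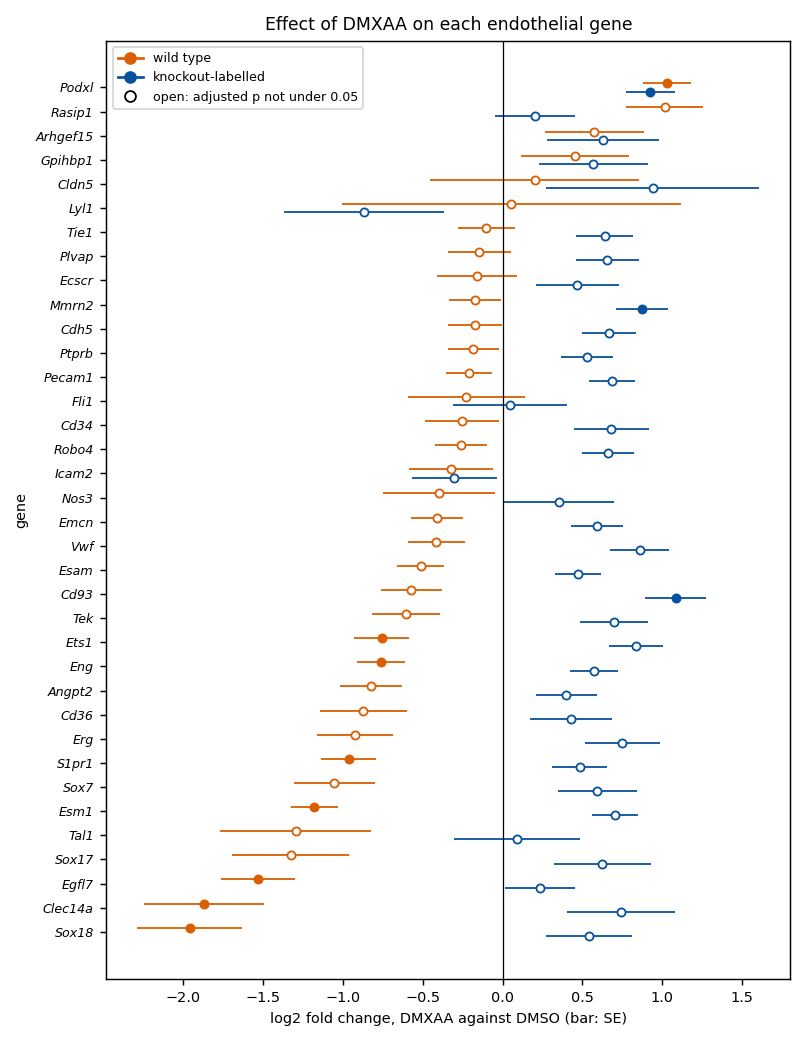
Log2 fold change of DMXAA against DMSO (x axis) with its SE (bar) for each of the 36 genes (y axis, ordered by the wild-type value), in wild-type (orange) and knockout-labelled (blue) islets; filled points had an adjusted p under 0.05. In 29 of 36 genes the wild-type point is left of 0 and the knockout-labelled point right of it, and both points are right of 0 for Podxl, Rasip1, Arhgef15, Gpihbp1 and Cldn5.

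Whether the effect of DMXAA differed by label was tested as knockout-labelled minus wild type, which rests on the same 8 libraries as the first 2 comparisons. The effect of DMXAA was more positive under the knockout label for 13 of the 36 genes and more negative for 0. Of all tested genes 1.2% were called (0.668% more positive and 0.528% more negative). The median difference was 0.99, against 0.00 over all genes. By role, the 13 were 4 of 5 secreted and matrix genes, 4 of 9 receptors and partners, 4 of 8 transcription factors and 1 of 8 junction and surface genes, with 0 of 3 in intracellular signalling and 0 of 3 in capillary transport.

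Clec14a and Sox18 differed most in size, by 2.61 (SE 0.51, adjusted p = 0.0201) and 2.50 (SE 0.43, adjusted p = 0.00887) on the log2 scale. Esm1 differed by 1.88 (SE 0.21, adjusted p = 0.000383) and was the only 1 of the 13 that kept its call in all 8 fits without a library. Egfl7 differed by 1.76 (SE 0.32, adjusted p = 0.0125), Ets1 by 1.59 (SE 0.24, adjusted p = 0.00380), S1pr1 by 1.45 (SE 0.24, adjusted p = 0.00852) and Eng by 1.33 (SE 0.21, adjusted p = 0.00604). These 7 are the genes that fell in wild-type islets. The other 6 did not pass the test there, and they were Erg at 1.67, Cd93 at 1.66, Sox7 at 1.65, Vwf at 1.27, Mmrn2 at 1.05 and Esam at 0.99, with adjusted p between 0.00661 and 0.0428.

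Most of these calls were lost in some fit without a library. Such a fit keeps 1 library in a group and has fewer degrees of freedom, so a lost call does not show that it rested on that library. The count was 13 with all libraries, 3 and 7 without wild-type DMXAA replicate 1 or 2, 4 and 2 without knockout-labelled DMSO replicate 1 or 2, and 7 without knockout-labelled DMXAA replicate 1. With total-count scaling it was 7. The call of Sox18 was lost without knockout-labelled DMSO replicate 1 (adjusted p = 0.0656) and that of Ets1 without knockout-labelled DMSO replicate 2 (adjusted p = 0.0676), in 1 fit each. The other 10 genes lost their call in 2 to 7 of the 8 fits without a library, with adjusted p up to 0.317. Podxl rose under both labels and its difference was -0.10 (SE 0.21, adjusted p = 0.927), turning to 0.01 without wild-type DMSO replicate 1. Among genes that missed the threshold, Angpt2 differed by 1.22 (adjusted p = 0.0504), Pecam1 by 0.90 (adjusted p = 0.0537), Tek by 1.30 (adjusted p = 0.0631), Sox17 by 1.95 (adjusted p = 0.0815) and Cdh5 by 0.84 (adjusted p = 0.175). Rasip1 was at -0.81 (adjusted p = 0.512).

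**Figure D4:**
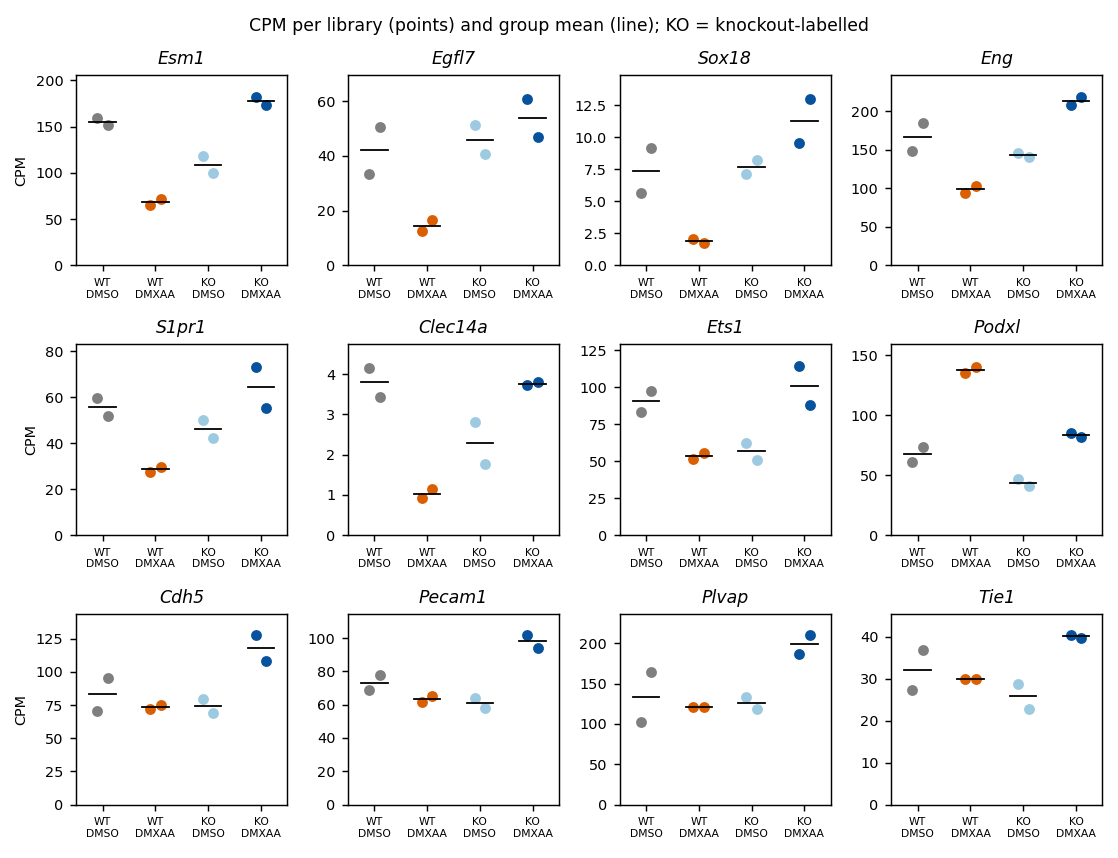
CPM of 12 of the genes in each library (points) with the group mean (line), for wild-type (WT) and knockout-labelled (KO) islets with DMSO or DMXAA; each y axis starts at 0 and has its own scale. Wild-type DMXAA points are lowest for Esm1, Egfl7, Sox18, Eng, S1pr1 and Clec14a and highest for Podxl, while for Cdh5, Plvap and Tie1 they overlap the range of the wild-type DMSO points.

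A further comparison set the genotype labels side by side without the agonist. Most of the 36 genes had lower values under the knockout label, and none passed the test. By edgeR 0 of 36 were called, where 0.223% of all tested genes were (0.182% higher and 0.041% lower), and 12 had an unadjusted p under 0.05. The count was 2 by DESeq2, 2 with no filter on low counts and 0 by limma-voom. The median log2 difference was -0.25, against 0.00 over all genes, with 25 of 36 below 0. The groups did not overlap in 19 genes that were lower and 1 that was higher, where 22.4% and 24.3% of all genes were so separated. Podxl was lower by a log2 difference of -0.62 (SE 0.15, adjusted p = 0.143). Scaling to total counts alone, without TMM, moved the median of all genes to -0.14 and that of the 36 to -0.40.

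Lyl1 was the 1 gene that was higher without overlap, and its counts were low. Wild-type libraries held 3 and 3 counts under DMSO and 2 and 4 under DMXAA, and knockout-labelled libraries 21 and 22 under DMSO and 10 and 17 under DMXAA. The ratio of knockout-labelled to wild-type CPM was 8.63 with DMSO (95% interval 3.66 to 24.8, exact binomial, counting error only; edgeR adjusted p = 0.111) and 4.51 with DMXAA (1.82 to 13.35; adjusted p = 0.217). Over all genes replicates differed by more than sampling noise, so these intervals may be too narrow, and no change is read from them. Lyl1 is also expressed in blood cells. All 11 lymphocyte markers were detected in the series, and they summed to 82.1 and 62.3 CPM in knockout-labelled DMSO, 5.57 and 10.4 CPM in knockout-labelled DMXAA, and between 2.91 and 25.4 CPM in the wild-type libraries. Their part in the Lyl1 values was not tested.

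The last comparison set the labels side by side under DMXAA. Most of the genes that passed the test were higher under the knockout label. Of the 36 genes 17 were higher and 1, Podxl, was lower, where 2.39% of all tested genes were called (1.02% higher and 1.37% lower). The median log2 difference was 0.72, against 0.04 over all genes. The groups did not overlap in 30 genes that were higher and 3 that were lower, where 23.3% and 21% of all genes were so separated.

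Sox18 and Sox17 had the largest differences of the 36 genes in this fit. Of the SOXF genes, Sox18 differed by 2.56 (SE 0.32, adjusted p = 0.000393), Sox17 by 2.16 (SE 0.35, adjusted p = 0.00288) and Sox7 by 1.07 (SE 0.25, adjusted p = 0.0428). Sox17, which has a part in arterial identity, was at 1.29 and 2.08 CPM in wild-type and at 8.38 and 6.79 CPM in knockout-labelled DMXAA libraries. Of the ETS genes, Erg differed by 1.13 (SE 0.24, adjusted p = 0.0210) and Ets1 by 0.92 (SE 0.17, adjusted p = 0.00939), while Fli1 did not pass the test. Of secreted genes, Egfl7 differed by 1.89 (SE 0.23, adjusted p = 0.000355), Esm1 by 1.37 (SE 0.15, adjusted p = 9.44e-05) and Angpt2 by 1.33 (SE 0.20, adjusted p = 0.00160). Angpt2 was at 20.8 and 18.6 CPM in wild-type and at 54.6 and 44.1 CPM in knockout-labelled libraries, and its other libraries lay between these groups.

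Among receptors, Clec14a differed by 1.86, S1pr1 by 1.17, Eng by 1.11, Cd93 by 1.11 and Robo4, a guidance receptor that stabilises vessels, by 0.69, with adjusted p between 0.000801 and 0.0428. Of surface and transport genes, the fatty acid transporter Cd36 differed by 1.56 (SE 0.27, adjusted p = 0.00502), Esam by 0.86, Emcn by 0.78 and Pecam1 by 0.63. Cd36 was at 9.15 and 5.83 CPM in wild-type and at 20.7 and 23.3 CPM in knockout-labelled libraries, and it is also expressed by macrophages. Podxl was lower by a log2 difference of -0.73 (SE 0.15, adjusted p = 0.0176), at 135 and 139.9 CPM against 85.0 and 81.4 CPM. Cdh5 missed the threshold (0.69, SE 0.17, adjusted p = 0.0537). Of the 18 genes, Angpt2, Egfl7, Eng, Esm1, S1pr1 and Sox18 kept their call in all 8 fits without a library, and the count was 7 and 8 without wild-type DMXAA replicate 1 or 2 and 11 without knockout-labelled DMXAA replicate 2. The other 12 lost their call in 1 to 6 of the 8 fits, with adjusted p up to 0.397. With total-count scaling the count was 9.

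Over the 5 comparisons 20 of the 36 genes were called at least once and 16 never. Among the 16 were the junction cadherin Cdh5, the fenestral protein Plvap and the Tie receptors, described above. Their companion Ptprb, the phosphatase that acts on Tie2 and Cdh5, lay between 27.4 and 46.7 CPM over the 8 libraries, with its lowest value in knockout-labelled DMSO replicate 2. The surface genes Icam2, a ligand of leukocyte integrins, and Cd34, a sialomucin shared with blood progenitors, lay between 4.06 and 6.27 CPM and between 10.1 and 19.9 CPM. Ecscr, an endothelial surface protein, lay between 5.20 and 8.41 CPM. Nos3, the endothelial nitric oxide synthase, lay between 3.21 and 7.87 CPM, both in the wild-type DMSO libraries, so its spread within that group spanned the whole series. Arhgef15 lay between 2.32 and 6.14 CPM, and Gpihbp1, which carries lipoprotein lipase to the capillary lumen, between 2.47 and 6.39 CPM. Of the transcription factors, Fli1 lay between 2.10 and 3.87 CPM and Tal1 between 0.468 and 2.47 CPM, from 9 to 51 counts.

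The values of the 36 genes were set beside endothelial genes that are not among them, a list also chosen with earlier results of these data known. Of 32 such genes 31 were tested. In wild-type islets 6 fell with DMXAA and 0 rose (median -0.60), in knockout-labelled islets 0 were called by edgeR, with 13 at an unadjusted p under 0.05 (median 0.49), and the difference was more positive for 11 (median 1.17). Acvrl1, the ALK1 receptor that works with Eng, was at 20.3 and 21.6 CPM in wild-type DMSO and at 9.80 and 8.43 CPM in wild-type DMXAA islets, a fall of 1.20 (SE 0.19, adjusted p = 0.00275). Its difference between labels was 1.82 (SE 0.26, adjusted p = 0.00243). Apold1, an early response gene of endothelium, was at 64.7 and 64.3 CPM and at 32.9 and 36.2 CPM, a fall of 0.90 (SE 0.14, adjusted p = 0.00360) with a difference of 1.60 (SE 0.20, adjusted p = 0.000980). Between the labels with DMSO 1 of the 31 was called, Calcrl, the adrenomedullin receptor, at -1.61 (SE 0.28, adjusted p = 0.0389). Under DMXAA 8 were higher and 0 lower in knockout-labelled islets. The 9 genes of the angiopoietin-Tie pathway include 4 of the 36, Angpt2, Tek, Tie1 and Ptprb, so that list does not stand apart from them. Of the 9 genes 7 were tested. By edgeR 0 were called in wild-type islets, in knockout-labelled islets and for the difference, with 3, 4 and 6 at an unadjusted p under 0.05.

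The summed level of the 36 genes followed the same order. In wild-type libraries it was 1168 and 1396 CPM under DMSO and 972 and 992 CPM under DMXAA. In knockout-labelled libraries it was 1108 and 996 CPM under DMSO and 1677 and 1582 CPM under DMXAA. The groups of each treatment comparison did not overlap in this sum, which was not tested and in which genes of high CPM weigh most. Markers of other cells moved as well. The 12 mural markers, each detected in at least 1 library, summed in wild-type libraries to 121 and 132 CPM under DMSO and 104 and 102 CPM under DMXAA, and in knockout-labelled ones to 97.7 and 95.1 CPM under DMSO and 141 and 136 CPM under DMXAA. The 10 markers of stellate cells and fibroblasts, all detected, summed in wild-type libraries to 400.0 and 189 CPM under DMSO and 107 and 205 CPM under DMXAA. In knockout-labelled libraries they summed to 154 and 159 CPM under DMSO and 328 and 259 CPM under DMXAA. Their median log2 fold change with DMXAA was -1.03 in wild-type and 0.86 in knockout-labelled islets. For mural markers it was -0.44 and 0.49, and 0 genes of either list were called in these comparisons. For the difference between labels the medians were 2.03 for stellate and fibroblast markers and 0.92 for mural markers. By edgeR 1 of 10 stellate and 0 of 11 tested mural genes were more positive there, against 0.668% of all genes. Under DMXAA 1 and 3 were higher under the knockout label, against 1.02% of all genes. With DMSO 0 and 1 were lower, against 0.041% of all genes. The 12 acinar markers, all detected, summed in wild-type libraries to 6325 and 1302 CPM under DMSO and 1457 and 2723 CPM under DMXAA, and in knockout-labelled ones to 1472 and 2218 CPM under DMSO and 393 and 339.6 CPM under DMXAA. The 12 macrophage markers, all detected, summed in wild-type libraries to 118 and 79.0 CPM under DMSO and 71.7 and 67.3 CPM under DMXAA. In knockout-labelled libraries they summed to 104 and 103 CPM under DMSO and 90.9 and 172 CPM under DMXAA. The median log2 fold change of macrophage markers with DMXAA was -0.47 in wild-type and 0.40 in knockout-labelled islets. It was 0.98 for the difference between labels, and 0 were called by edgeR in these 3 comparisons. The 8 platelet markers, of which Gp1bb was at 0 in all libraries, summed to between 3.68 and 5.40 CPM. The part of these other cells in the endothelial values was not tested.

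**Figure D5:**
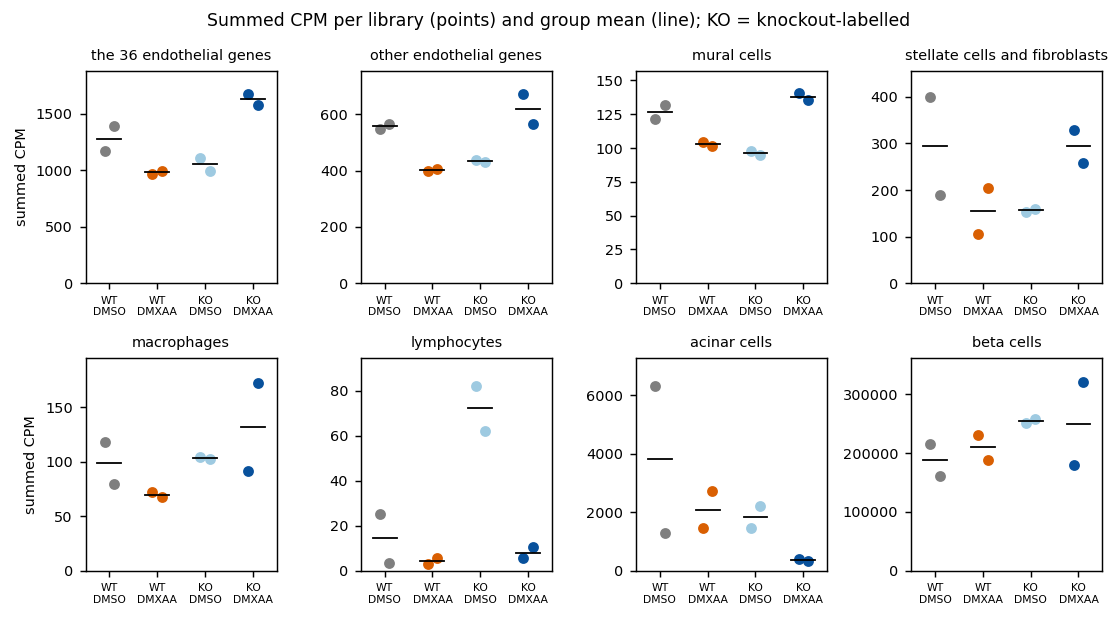
Summed CPM of the 36 endothelial genes and of marker lists of other cells in each library (points) with the group mean (line); each y axis starts at 0 and has its own scale, and KO is knockout-labelled. The 36 genes are highest in knockout-labelled DMXAA islets (1677 and 1582), where mural markers are also highest (141 and 136) and acinar markers lowest (393 and 339.6).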

How the data were processed

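Poly(A) RNA-seq of whole mouse islets gave 8 libraries, grouped by the genotype and agent in their labels. The deposited files hold raw counts per Ensembl gene with no normalization; the submitters' processing notes name HISAT2, HTSeq and the build mm10. The annotation release and the strand setting were not given in the sources used here. Symbols, coordinates and exon lengths came from GENCODE release M21 on the same build, which held 54495 of 54532 identifiers. The 36 genes and all lists were chosen with earlier results of these data known. All 36 could be named; of other lists, at most 4 genes with the smallest p per contrast, plus Sting1.

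Counts were fitted with edgeR 4.0.16 in R 4.3.3: filterByExpr by group, TMM, 1 coefficient per group over all 8 libraries (4 residual degrees of freedom, biological coefficient of variation 17.1%), robust glmQLFit with legacy=FALSE and glmQLFTest, with Benjamini-Hochberg adjustment over 17055 genes for each of 5 contrasts. SE is the absolute log2 fold change over the square root of F. Replicates differed by more than sampling noise (chi-square per degree of freedom 6.83 to 53.8). The steps were tested on simulated data. Alternatives were RLE size factors, total-count scaling, no filter, a filter of 1 CPM in 4 libraries, DESeq2 1.42.0, limma-voom (limma 3.58.1), the legacy fit, a replicate block, the 4 libraries of a contrast alone, and each library left out.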

Additional observations from a re-analysis of the deposited data

Results flagged for a closer look

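In these genes the effect of DMXAA differed between the genotype labels when the difference itself was tested with edgeR (knockout-labelled minus wild type, log2 scale). The values were 2.61 for Clec14a, 2.50 for Sox18, 1.88 for Esm1, 1.76 for Egfl7, 1.67 for Erg, 1.66 for Cd93, 1.65 for Sox7, 1.59 for Ets1, 1.45 for S1pr1, 1.33 for Eng, 1.27 for Vwf, 1.05 for Mmrn2 and 0.99 for Esam, with adjusted p from 0.000383 (Esm1) to 0.0428 (Mmrn2). In all 13 the wild-type fold change was below 0 and the knockout-labelled one above 0. The 13 were picked by a positive difference, which favours these signs, and 29 of the 36 genes had them.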

How the results depend on the processing

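Medians of the 36 genes kept their sign in every alternative, between -0.47 and -0.33 in wild-type islets, 0.55 and 0.71 in knockout-labelled islets, 0.91 and 1.14 for the difference, -0.40 and -0.10 between labels with DMSO and 0.64 and 0.81 with DMXAA. Counts of called genes depended more on the setting, and the cause was not tested. With total-count scaling the counts were 0 in knockout-labelled islets, 7 for the difference and 9 between labels under DMXAA, and the summed level in wild-type DMXAA islets was 1006 CPM. With no filter they were 8 in knockout-labelled islets and 2 between labels with DMSO, and with DESeq2 9 and 2. The count in knockout-labelled islets was 0 with limma-voom and with the stricter filter, and that in wild-type islets was 5 in a fit of its 4 libraries alone. Without 1 library the counts lay between 3 and 10 in wild-type islets, 0 and 7 in knockout-labelled islets, 2 and 15 for the difference and 7 and 20 between labels under DMXAA, and stayed at 0 with DMSO. Signs were followed for called values and for others printed here with a fold change, not for all of the 36 genes. Of the values followed, 4 turned sign, none of them called. Without a library the wild-type fold change lay between -0.29 and 0.14 for Tie1, -0.43 and 0.24 for Plvap and -0.36 and 0.059 for Cdh5. The difference lay between -0.24 and 0.0099 for Podxl.

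Same-numbered replicates did not deviate together (correlations of deviations from -0.12 to 0.11), so the numbers were not taken as pairs. With a replicate block the counts were 8, 2, 13, 0 and 16 in the order of the 5 comparisons. Of the 13 for the difference, 12 were among the 13 called without a block. The calls lost in knockout-labelled islets (Mmrn2), for the difference and under DMXAA are not read as weaker effects. In a fit of the 4 DMXAA libraries alone, the count under DMXAA was 14 without a block and 18 with a block of crossed numbers, added after seeing the data.

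With 2 libraries a group, 4 residual degrees of freedom limit what can be called. Clec14a, Cldn5, Fli1, Lyl1 and Tal1 had under 80 counts in each library. TMM scaling assumes that most genes did not change.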
